A study of Rattus norvegicus with 12 samples.

Results

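NK cell receptors of the Ly49 family were followed here in the contused spinal cord of T cell-deficient and immunocompetent rats. Of 8 genes set out to be described, which were the receptor genes Klra1, Klra5, Klrd1, Klrk1 and Klrb1 and the granule genes Nkg7, Prf1 and Gzmb, 2 were matched to a listed gene. These were Klra1 (RGD:1359667) and Klra5 (RGD:735134), out of 17423 genes listed by Rat Genome Database (RGD) identifier. The other 6 are not analysed here, so what follows concerns receptors, and the members' granule genes are not covered. The members were picked by name, with earlier results of these data known.

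RNA came from 12 adult female rats, 16 to 18 weeks old when injured, with 3 rats in each of 4 groups. AN (athymic nude, Hsd:RH-rnu/rnu) and SD (Sprague-Dawley, Hsd:SD) rats all received a moderate contusion at 200 kdyn, and a 1-mm segment through the injury was taken at 1 week (acute phase) or 8 weeks (chronic phase), so the chronic groups were also older at sampling. The rnu allele leaves a rat without a functional thymus and short of mature T cells, while NK cells do not need a thymus. The nude allele and the strain background cannot be told apart in this design, and no uninjured cord was analysed here. Each group is represented by 1 FPKM per gene (a fragment count scaled by transcript length and library size), so there was no spread between rats to test against, and the number of reads behind each gene's value was not analysed here. Each difference below compares 2 group values and has no replicate check.

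NK cells are innate lymphocytes that kill stressed or infected cells with perforin and granzymes. Ly49 receptors, encoded by the Klra and Ly49 genes, are C-type lectin-like proteins that recognise MHC class I molecules and either inhibit or activate the NK cell. Rodents carry them as a cluster of similar genes whose content varies between strains, next to other lectin-like receptors in the NK gene complex. In rats some Ly49 genes are also expressed by other leukocytes.

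Both members lie in this cluster on chromosome 4 of the RN4 genome, Klra5 at chr4:168746812-168764198 and Klra1 at chr4:168892865-168928286. The symbol Klra1 is not unique, since 3 entries of the RefSeq gene table (GRCr8) carry it now or as an older name, namely Klra1, Klra2 and Klra22. Which of these the listed gene corresponds to was not settled. On RN4 the listed Klra1 has the higher coordinates of the 2 members, and on GRCr8 the entry Klra2 lies above Klra5 while the entry Klra1 lies below it. The sequences below, from RefSeq on GRCr8, run from 250 bases before to 50 bases after the gene start and are shown for the entries Klra5, Klra1 and Klra2, the latter pair being candidates for the listed Klra1. All 3 lie on the minus strand, and capitals mark the longest run that the entries Klra1 and Klra5 have in common.
Klra5 (chr4:166554801-166555100): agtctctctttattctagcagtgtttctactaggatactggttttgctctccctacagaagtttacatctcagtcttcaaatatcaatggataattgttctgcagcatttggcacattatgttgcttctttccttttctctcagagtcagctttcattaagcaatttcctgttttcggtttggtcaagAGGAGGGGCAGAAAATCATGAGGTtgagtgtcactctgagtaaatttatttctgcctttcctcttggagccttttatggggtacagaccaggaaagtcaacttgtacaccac
Klra1 (chr4:166313566-166313865): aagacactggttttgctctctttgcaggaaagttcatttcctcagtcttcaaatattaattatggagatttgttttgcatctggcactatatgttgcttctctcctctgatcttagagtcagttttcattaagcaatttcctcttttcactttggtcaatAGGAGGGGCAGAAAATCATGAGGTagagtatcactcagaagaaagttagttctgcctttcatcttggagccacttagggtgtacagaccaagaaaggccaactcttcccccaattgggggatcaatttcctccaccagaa
Klra2 (chr4:166716753-166717052): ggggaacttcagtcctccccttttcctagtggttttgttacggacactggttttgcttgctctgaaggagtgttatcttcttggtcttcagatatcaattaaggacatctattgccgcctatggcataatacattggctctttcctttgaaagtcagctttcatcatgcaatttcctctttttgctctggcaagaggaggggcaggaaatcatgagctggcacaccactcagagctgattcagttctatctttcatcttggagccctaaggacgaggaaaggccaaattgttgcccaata
The run of 24 bases was present, on either strand, in 4 of 33469 promoters of the same length (0.0120%), which were those of Klra1, Klra5, Klra22 and Ly49i5. The run was chosen from the entries Klra1 and Klra5, so their promoters hold it by that choice. Klra2 does not hold it, so it is not established that the listed Klra1 shares it with Klra5. It was thus found in 4 of 21 promoters of genes named Klra or Ly49. In a global alignment the Klra1 and Klra5 windows were identical at 67.1% of 334 aligned columns, Klra1 and Klra2 at 59.2% of 341, and Klra2 and Klra5 at 66.6% of 317. These are descriptions of sequence and say nothing of which factors bind there.

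Klra5 was the more abundant of the 2 members in each group. At 1 week its FPKM was 28.3 for AN against 15.9 for SD rats. This is a 1.78-fold higher value in AN rats, with a log2FC (log2 of AN over SD FPKM) of 0.83. At 8 weeks it was 24.3 against 15.8, or 1.54-fold higher in AN rats (log2FC 0.62). Both AN values were above both SD values, and the SD values were nearly equal. The level of Klra5 exceeded 59.4% (SD) and 73.0% (AN) of genes above 0 FPKM at 1 week, and 59.1% and 69.4% at 8 weeks.

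Klra1 was present at a lower level. Its acute FPKM was 8.94 for AN against 5.79 for SD rats, which is 1.54-fold higher in AN rats (log2FC 0.63). Its chronic FPKM was 16.9 against 7.35, a 2.29-fold higher value in AN rats (log2FC 1.20). The chronic AN group stood above the other 3, which lay between 5.79 and 8.94. Klra1 exceeded 38.8% (SD) and 46.9% (AN) of genes above 0 FPKM at 1 week, and 42.4% and 60.0% at 8 weeks. FPKM is scaled by gene length, but reads of similar Ly49 genes can be split between copies, so the ratio of the members is approximate. The same limit holds for the strain differences of Klra5 and Klra1, since reads of both strains were mapped to RN4. The part of read assignment in these differences was not tested. As listed, Klra5 was 2.75 (SD) and 3.17 (AN) times the level of Klra1 at 1 week, and 2.15 and 1.44 times at 8 weeks.

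**Figure D1:**
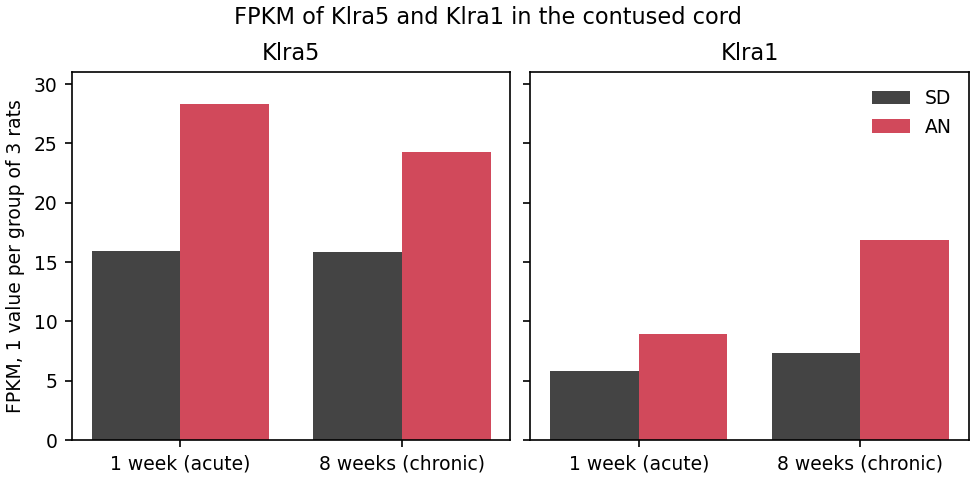
FPKM of Klra5 (left) and Klra1 (right) in SD (grey) and AN rats (red) at 1 and 8 weeks after contusion; each bar is 1 value for a group of 3 rats and has no error bar. AN bars exceed SD bars in each pair, and the widest relative gap is that of Klra1 at 8 weeks (7.35 against 16.9).

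With 1 value a group, a gene was called where the strains differed at least 2-fold, among genes with a mean FPKM of at least 1 over the 2 groups. In the acute phase neither member was called, against 1.89% of 11068 genes called higher and 10.1% called lower in AN rats. In the chronic phase Klra1 was called higher and Klra5 was not, against 2.05% of 11198 genes called higher and 5.55% called lower. The median log2FC of all genes was 0.01 in both phases, while the medians of the 2 members were 0.73 and 0.91.

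The members were also placed among genes of like level, taken as those with a mean FPKM within 2-fold of their own. In the acute phase 2.45% of 4494 genes at the level of Klra5 had a log2FC at least as high, and 6.55% of 3405 genes at the level of Klra1. In the chronic phase the shares were 3.77% of 4643 genes for Klra5 and 0.858% of 4314 genes for Klra1. These shares describe where the members fall among other genes and do not measure the variation between rats.

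**Figure D2:**
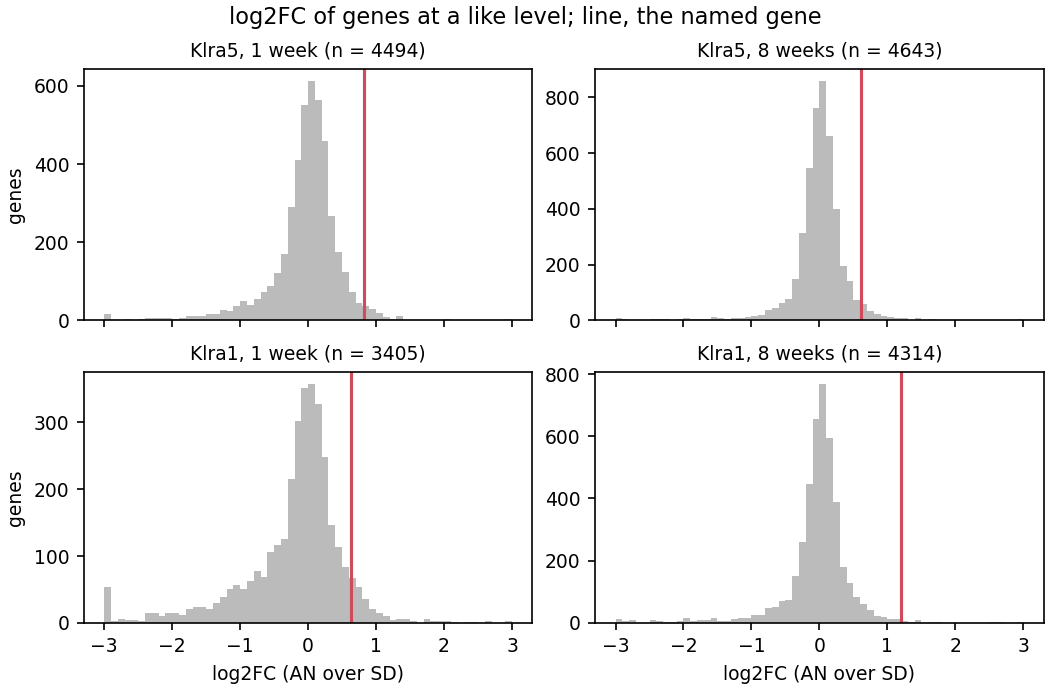
Histograms of log2FC (AN over SD, bins of 0.1) for genes with a mean FPKM within 2-fold of Klra5 (top) or Klra1 (bottom) at 1 week (left) and 8 weeks (right), with values beyond the axis collected in the end bins. The red line marks the member's own log2FC, which lies in the upper tail of each panel, from 0.62 for Klra5 at 8 weeks to 1.20 for Klra1 at 8 weeks.

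The strain difference of Klra1 was smaller in the acute than in the chronic phase, with an acute minus chronic log2FC of -0.57. Among 10857 other genes, 18.3% had a difference between phases at least this large in either direction. The corresponding value for Klra5 was 0.21, and 53.1% of genes had one at least as large. Neither difference between phases was tested, since the values used are 1 per group.

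Set side by side, the chronic level of Klra1 was 1.27 times the acute level in SD rats and 1.89 times in AN rats. For Klra5 the chronic level was 0.994 times the acute level in SD rats and 0.859 times in AN rats. Klra1 thus had the higher chronic-over-acute ratio in both strains, while Klra5 had the higher level. The tables of the 2 phases were normalized separately, but over 10381 genes that reached 1 FPKM in each group the median chronic level was 1.01 times the acute level.

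Another 7 listed genes lie in the same cluster and hold Ly49 in their symbol (Ly49i7 and 2 genes named Ly49si2) or in their full name only (4 genes with the symbol LOC690097, Ly49 inhibitory receptor 9). With Klra1 and Klra5 they are the 9 genes referred to below as named Ly49 or Klra. The strain differences of the 7 were wider than those of either member at 1 week, and at 8 weeks for all but 1 (RGD:1585167). The names of the 7 came from the part of the study's supplementary gene table held here, whose rows were all called different between strains at 1 week by the study. Their acute differences are therefore given as values and are not support for a strain effect. Several share a symbol, and reads from near-identical copies can be split between them, which leaves the level of any 1 of them uncertain.

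The genes named Ly49si2, a Ly49 immunoreceptor gene, were higher in AN rats. The first (RGD:1359669) measured 9.88 FPKM in AN against 2.97 in SD rats at 1 week, and 7.63 against 1.04 at 8 weeks (log2FC 1.74 and 2.88). The second (RGD:1359240) measured 12.7 against 2.57 at 1 week and 8.73 against 0.964 at 8 weeks (log2FC 2.30 and 3.18). For both, the AN value was several times the SD value at either time.

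The genes sharing the symbol LOC690097 went both ways. RGD:1359487 measured 0.672 FPKM in AN against 24.9 in SD rats at 1 week, and 0.426 against 7.62 at 8 weeks (log2FC -5.21 and -4.16). RGD:1585167 measured 0.870 against 15.8 at 1 week and 3.17 against 6.86 at 8 weeks (log2FC -4.18 and -1.11). These genes were lower in AN than in SD rats in both phases, and the first was the most abundant of the 9 genes named Ly49 or Klra in acute SD rats. By contrast, RGD:1585116 measured 5.99 against 2.20 at 1 week and 3.56 against 1.10 at 8 weeks (log2FC 1.45 and 1.70). RGD:1584856 measured 3.38 against 0.708, then 1.93 against 0.287 (log2FC 2.25 and 2.75). The latter pair was higher in AN rats in both phases.

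Ly49i7 (RGD:1359302), which lies between Klra5 and Klra1, was lower in AN rats. It measured 0.740 FPKM in AN against 2.90 in SD rats at 1 week, and 0.988 against 4.47 at 8 weeks (log2FC -1.97 and -2.18). Klra5 and Klra1, which flank it, were higher in AN rats in both phases.

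**Figure D3:**
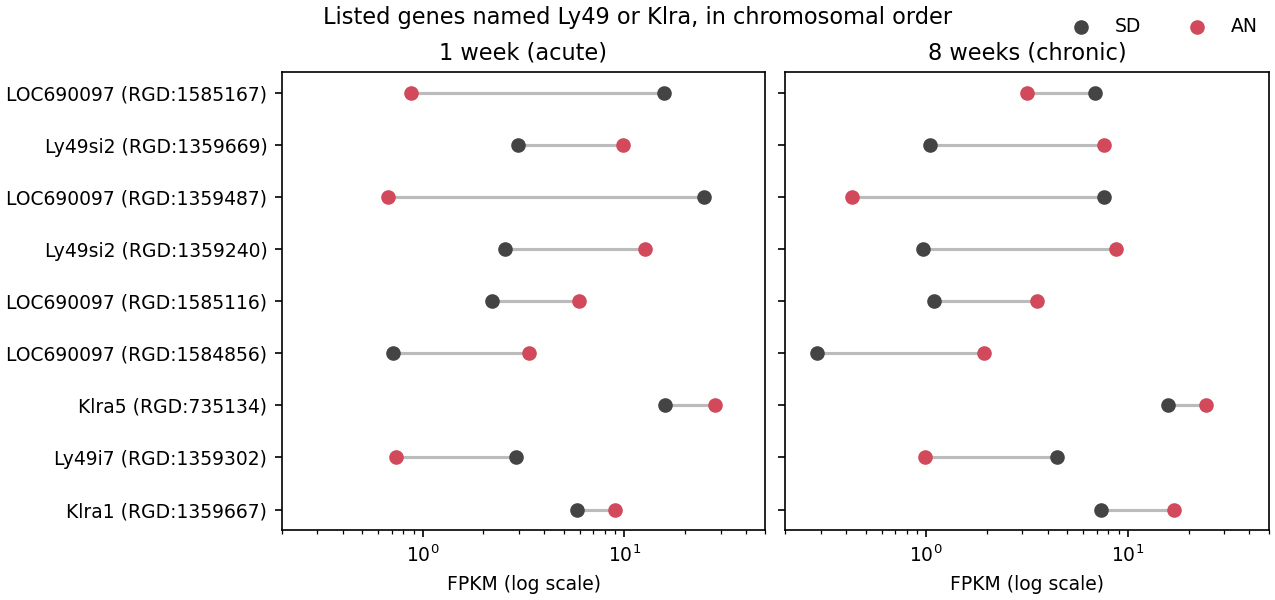
FPKM (log scale) of the 9 listed genes named Ly49 or Klra, in chromosomal order, in SD (grey) and AN rats (red) at 1 week (left) and 8 weeks (right), 1 value per group of 3 rats. Red lies to the right of grey for 6 genes and to the left for 3 genes in both panels, and the gaps of Klra5 and Klra1 are among the narrower ones.

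Summed over these 9 genes, the strains were close in the acute phase and apart in the chronic phase. Genes of the cluster without a symbol here are not in this sum. Among them RGD:1561306 measured 30.8 FPKM in AN against 25.9 in SD rats at 1 week, and 21.4 against 9.71 at 8 weeks. The summed FPKM was 71.5 for AN against 73.7 for SD rats at 1 week, a log2 ratio of -0.045. It was 67.6 against 45.5 at 8 weeks, a log2 ratio of 0.57. Klra5 held 21.6% (SD) and 39.6% (AN) of the sum at 1 week, and 34.8% and 36.0% at 8 weeks. Klra1 held 7.86% and 12.5%, then 16.2% and 25.0%. In acute SD rats the most abundant of the 9 genes was RGD:1359487 with 33.8% of the sum, and in the other 3 groups it was Klra5. The median log2FC over the 9 genes was 0.83 at 1 week and 1.20 at 8 weeks, so the median and the sum differed in sign in the acute phase. These medians are the members' own values, that of Klra5 at 1 week and that of Klra1 at 8 weeks. The other 7 genes were named through their acute call. Neither the sum nor the median is therefore an unselected measure of the family.

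To avoid depending on names, the genes listed within 2 Mb of either member were also counted. Of these 78 genes, 22 had a mean FPKM of at least 1 in the acute phase, of which 5 were called higher and 5 lower in AN rats. In the chronic phase 20 genes passed the minimum, 6 called higher and 4 lower. Their median log2FC was 0.29 and 0.05. The differences lay mostly in the 1.65 Mb between the outermost genes named Ly49 or Klra (RGD:1585167 and Klra1), a stretch whose limits were drawn after the values were seen. It holds 22 listed genes, including 13 without a symbol here.

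Of the 22 genes of this stretch, 15 passed the minimum in the acute phase and 5 were called higher and 4 lower in AN rats. In the chronic phase 13 passed, with 6 called higher and 4 lower. For all genes the called shares were 1.89% and 10.1% (acute) and 2.05% and 5.55% (chronic). The counts of the stretch are no support for a difference from other genes, since its limits followed the values and several genes passed the minimum only through the strain where they were high. The other strain was below 1 FPKM for 2 of the 5 higher and 4 of the 4 lower genes at 1 week, and for 2 of the 6 higher and 3 of the 4 lower genes at 8 weeks. Of the 13 genes that passed in both phases, 11 differed in the same direction, 4 were called higher in both, 4 lower in both and none was called in opposite directions. The same counts over all genes were not made, so this agreement between phases does not set the stretch apart. The lowest log2FC was that of RGD:1563110, a gene with no symbol here (chr4:167483018-167504613). It measured 0.0760 FPKM in AN against 10.1 in SD rats at 1 week, and 0.0248 against 2.90 at 8 weeks (log2FC -7.06 and -6.87). Both log2FC rest on AN values near 0, so their size and this rank are uncertain.

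**Figure D4:**
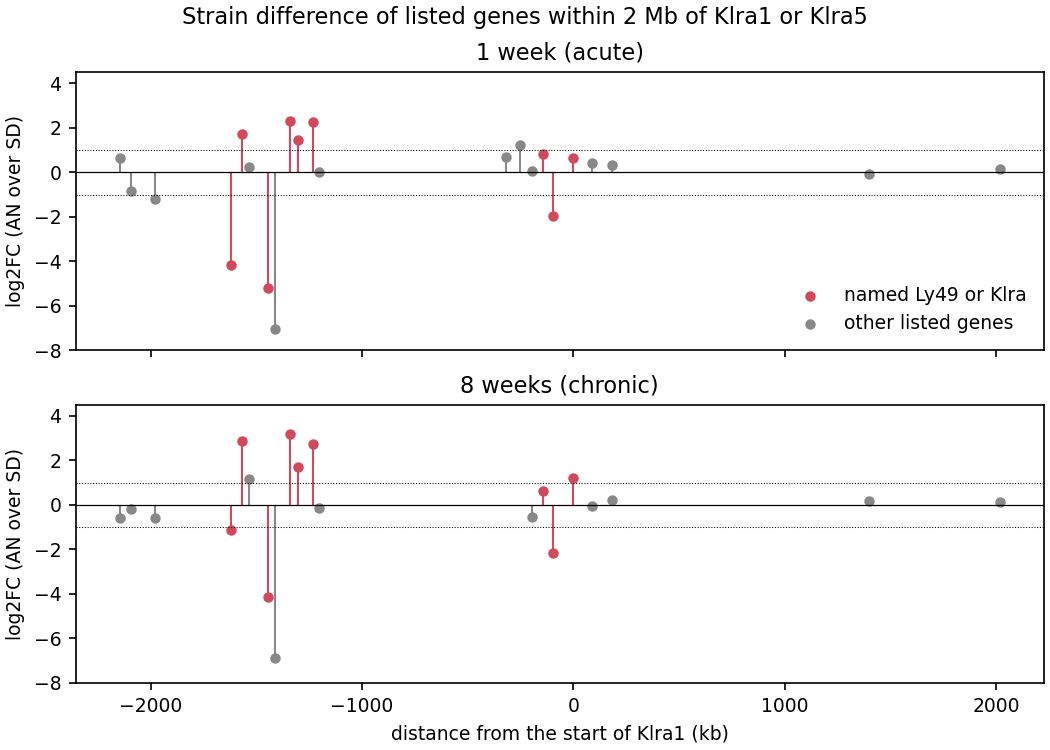
log2FC (AN over SD) of genes with a mean FPKM of at least 1, against their distance in kb from the start of Klra1, at 1 week (top) and 8 weeks (bottom), with dotted lines at 2-fold. Genes named Ly49 or Klra are red and others grey, and the values range from -7.06 to 2.30 at 1 week and from -6.87 to 3.18 at 8 weeks.

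**Figure D5:**
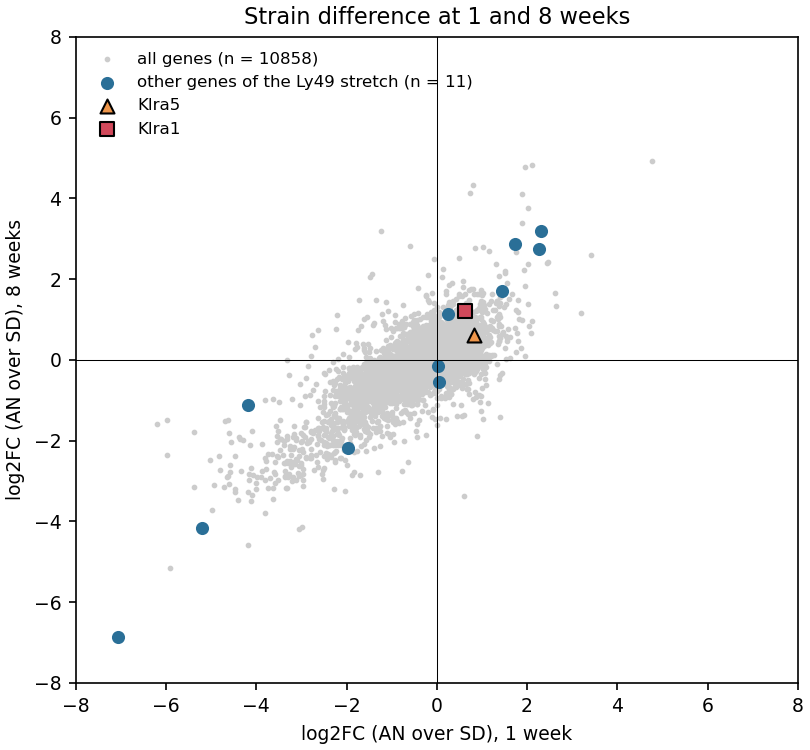
log2FC (AN over SD) at 1 week against that at 8 weeks for 10858 genes with a mean FPKM of at least 1 in both phases (grey), with Klra5 (triangle), Klra1 (square) and the 11 other genes of the Ly49 stretch (blue). Klra5 and Klra1 lie in the upper right quadrant near the main cloud, while several others of the stretch lie far out along the diagonal in both directions.

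Without Klra1 and Klra5, the stretch summed to 107 (SD) and 86.8 (AN) FPKM at 1 week and to 44.5 and 59.7 at 8 weeks. The chronic level of these other genes was 0.417 times the acute level in SD rats and 0.688 times in AN rats. Klra1 and Klra5 together went from 21.7 to 23.2 in SD rats and from 37.2 to 41.2 in AN rats, with separately normalized tables.

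MHC class I molecules of the rat, which Ly49 receptors recognise, are encoded by RT1 genes. Of 29 ligand symbols listed, 8 were matched to 12 genes, 10 of them RT1 genes with names from the same supplementary table and thus chosen by their acute difference. In the acute phase 2 of 9 RT1 genes with a value in both strains were called higher and 4 lower in AN rats, and in the chronic phase 3 higher and 2 lower. Over all genes 1.89% were called higher and 10.1% lower at 1 week, and 2.05% and 5.55% at 8 weeks. RT1-CE11 measured 114 FPKM in AN against 40.2 in SD rats at 1 week, and 142 against 32.2 at 8 weeks (log2FC 1.51 and 2.14). RT1-T24-3 measured 3.51 against 20.1, then 2.51 against 19.3 (log2FC -2.52 and -2.94). The 4 genes sharing the symbol RT1-A2, a classical class I gene, went both ways, with acute log2FC from -3.35 to 1.07 and chronic log2FC from -3.17 to 1.39. RT1-N1 had 4.84 in acute and 4.80 in chronic SD rats and was listed at 0 in AN rats in both phases. Like the Ly49 genes, RT1 genes are similar copies that differ between strains. Clec2g, of a family that includes ligands of other lectin-like NK receptors, was named through the RefSeq gene table and measured 6.30 against 4.73, then 6.44 against 3.82 (log2FC 0.41 and 0.75). PVR, the ligand of the NK receptor CD226, was named from the supplementary table like the RT1 genes and measured 25.0 against 13.0, then 7.56 against 6.64 (log2FC 0.95 and 0.19).

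Other NK receptors matched outside the cluster were few. Of 32 symbols, 6 were matched to 10 genes, including the 7 Ly49 genes above. In this and the next 2 paragraphs, names other than Slamf6, Slamf7, Sh2d1a and Gzmn also came from the supplementary table, so those genes were chosen by their acute difference and counts over them are not independent evidence of a strain effect. Slamf6 (RGD:1561848), a receptor of NK, T and B cells, measured 3.92 FPKM in AN against 3.08 in SD rats at 1 week, and 8.54 against 2.27 at 8 weeks (log2FC 0.34 and 1.91). It was named through the RefSeq gene table and was called higher in the chronic phase, as was Klra1. CD244 (RGD:68400), the NK cell receptor 2B4, measured 0.358 against 1.57, then 0.391 against 1.06, and its mean was below the minimum in both phases, so it entered no count. Slamf7 (RGD:1560190) stayed below an FPKM of 0.5 in each group.

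Among adaptors and kinases downstream of NK receptors, 5 of 18 symbols were matched, and none of the 4 genes above the minimum was called in either phase. With 1.89% to 10.1% of all genes called in a given direction and phase, a count of 0 of 4 sets these genes apart in no way. FCER1G, the Fc receptor gamma chain that NK and myeloid cells share, measured 1791 FPKM in AN against 1144 in SD rats at 1 week, and 854 against 853 at 8 weeks (log2FC 0.65 and 0.00). The signalling adaptor lcp2 (SLP-76) measured 65.7 against 38.4, then 24.9 against 24.7 (log2FC 0.78 and 0.01). PTPN6, the phosphatase SHP-1 that inhibitory Ly49 receptors recruit, measured 108.1 against 71.3, then 50.1 against 47.8 (log2FC 0.60 and 0.07). For these 3 genes the strains were apart in the acute phase, by which they were chosen, and level in the chronic phase. LAT2, an adaptor of NK, B and myeloid cells, was higher in AN rats in both phases, at 68.4 against 41.4 and 50.4 against 31.1 (log2FC 0.72 and 0.70). Sh2d1a, the SAP adaptor of T and NK cells, was between 0.237 and 0.884 in the 4 groups. Among granule genes, 3 of 22 symbols were matched. CTSW, cathepsin W of cytotoxic lymphocytes, measured 0.527 against 1.81 at 1 week and 1.92 against 2.20 at 8 weeks (log2FC -1.78 and -0.19). STXBP2, which serves granule release, measured 48.3 against 32.0, then 23.7 against 20.5 (log2FC 0.60 and 0.20), and Gzmn, a granzyme, was listed at 0 in each group. Of 27 cytokine, cytokine receptor and transcription factor symbols only il2rg, the shared receptor chain for interleukins 2 and 15, was matched, at 24.6 against 13.0, then 9.51 against 6.90 (log2FC 0.92 and 0.46). CTSW passed the minimum in the acute phase only through its SD value, and its name came from the acute call.

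Of the matched markers of other leukocytes, only ITGAM was higher in AN rats in both phases, as Klra1 and Klra5 were. Of 9 T cell markers 3 were matched, with summed FPKM of 244 (AN) and 181 (SD) at 1 week and 103 and 126 at 8 weeks. The markers went opposite ways. CD4 was at 44.4 FPKM in AN against 102 in SD rats at 1 week and 79.0 against 94.0 at 8 weeks, and Cd8a was at 199 against 76.0, then 22.8 against 29.5. The higher acute sum of AN rats was thus that of Cd8a alone, and other leukocytes of the rat also express CD4 and Cd8a. Cd3g, which encodes a CD3 chain of T cells, was at 0.531 against 2.74, then 1.40 against 2.58. Of 7 macrophage and microglia markers 3 were matched (ITGAM, CD14 and Cx3cr1), and their summed FPKM was 379 (AN) and 199 (SD) at 1 week and 153 and 150 at 8 weeks. None of the matched markers was at 0 in any group, and no mast cell or B cell marker was matched. The 3 macrophage markers were higher in AN rats at 1 week, where they had been picked by the study's call, and went both ways at 8 weeks (ITGAM 58.3 against 43.7, CD14 36.0 against 36.7, Cx3cr1 58.8 against 69.4). Their sums are therefore not an unselected measure of macrophages. The part of these cells in the values of Klra1 and Klra5 was not tested. In bulk tissue fewer cells of a type and less RNA per cell cannot be told apart.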

How the data were processed

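RNA-seq was made from the injury epicenter of 12 rats, 3 per strain and time point. The authors removed adapters with CutAdapt, mapped reads to RN4 with TopHat (version 1.5.0), assembled transcripts with Cufflinks (version 0.0.6, as the submitters' processing notes give it) using quartile normalization, and compared strains with CuffDiff. The deposited FPKM values are 1 per gene and group of 3 rats, in 2 tables of 17423 genes normalized separately. Columns of the authors' own comparison (status, fold change, test statistic, P, Q and call) were not used. No reads per gene or values per rat were analysed here, so no test, standard error or interval is given.

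The log2FC is log2 of AN over SD FPKM with no pseudocount, and genes listed at 0 in a group were left out. Calls are at least 2-fold with a mean FPKM of at least 1. Counting of calls was tested on simulated data. Group membership came from the strain and time point in the labels. Starts are counted from 0 in the tables, since 96.5% of genes of 1 short length class then had a length divisible by 3, and are given from 1.

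Klra1 and Klra5 were taken by RGD identifier. Other symbols came from the supplementary gene table (1949 genes) or from RGD synonyms in the GRCr8 gene table (2733 genes). The rows of the supplementary table held here were all called by the study at 1 week. The members and gene lists were chosen with earlier results of these data known. Named genes are the matched members, each gene named Ly49 or Klr, matched genes of the lists and the nearest genes by log2FC. Python 3.11.15 and pandas 2.3.3 were used. Alternatives were other pseudocounts, minimums and folds, centring on the median of all genes, and scaling between tables.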

Additional observations from a re-analysis of the deposited data

How the results depend on the processing

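The log2FC of Klra1 and Klra5 stayed on the same side of 2-fold in both phases with a pseudocount of 0.1 or 1 FPKM and with centring on the median of all genes, and the sign of the acute minus chronic difference held for both. At 1.5-fold both members were called higher in both phases. Over all genes, 816 of 11068 were called higher at 1 week and 673 of 11198 at 8 weeks. At 3-fold neither member was called, against 55 of all genes called higher at 1 week and 77 at 8 weeks. Over the genes named Ly49 or Klra, summing FPKM in place of the median turned the acute log2 value to -0.045 and gave 0.57 in the chronic phase. In the Ly49 stretch (an addition made after seeing the data), the acute count higher in AN rats was 2 at a minimum FPKM of 5, 8 at 1.5-fold and 3 at 3-fold, and at a minimum of 5 the chronic counts were 2 higher and 1 lower. The limits given above for counts of the stretch hold here too. For all genes, acute counts higher and lower were 346 and 1848 at a minimum of 0.1, 130 and 560 at 5, 438 and 2184 with none, 816 and 1849 at 1.5-fold and 55 and 567 at 3-fold. Chronic counts were 428 and 1077, 130 and 266, 565 and 1290, 673 and 1087, and 77 and 352 in the same order, so these counts follow the minimum and fold by construction. Leaving out a rat was not run, since the values are 1 per group. No paired analysis was possible because the FPKM columns used carry 1 value per group and no replicate number.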

Other observations

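In the Ly49 stretch, 2 genes without a symbol here were near 0 in SD rats and higher in AN rats at both times, and both had a mean FPKM below 1. RGD:628669 (chr4:168339391-168364012) measured 0.835 FPKM in AN against 0.0586 in SD rats at 1 week, and 1.28 against 0.0561 at 8 weeks. RGD:1359586 (chr4:168483900-168505679) measured 0.478 against 0.0142, then 1.27 against 0.0593. Both were picked after their values were seen, and the fold of such low values is not given.

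The named genes nearest to each member in the pair of acute and chronic log2FC were taken from 3358 named genes that reached 1 FPKM in each group. For Klra1 they were Pcolce (log2FC 0.64 and 1.18), an enhancer of procollagen processing, STEAP4 (0.65 and 1.25), a metalloreductase, and Layn (0.60 and 1.14), a hyaluronan receptor, at Euclidean distances of 0.03, 0.06 and 0.07. For Klra5 they were FBLIM1 (0.80 and 0.65), an adaptor at cell adhesions, TRPV2 (0.77 and 0.62), a cation channel, and Ptprc (0.78 and 0.57), the leukocyte antigen CD45, at distances of 0.04, 0.06 and 0.07. All but Layn were named from the supplementary table and so were chosen by their acute difference. The likeness is over 2 values per gene, and a small distance says nothing of shared control.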
